A study of Arabidopsis thaliana with 27 samples.

Results

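The comparison set an Arabidopsis thaliana line carrying a T-DNA insertion in EARLY FLOWERING 3 (ELF3) against Columbia wild type, both held at 16 °C. Its differences were taken between 6 of the 27 seedling libraries of the study, 3 of each genotype. Tests covered the 21396 of 33039 genes that reached at least 1 TPM (a transcript level scaled for transcript length and library total) in at least 3 of all 27 libraries. The study sampled 3 genotypes at 16, 22 and 29 °C: the wild type, the insertion line, which the protocol calls ELF3-101, and a line whose ELF3 carries S364P. All share the Columbia background, and the labels give neither the position of the insertion, nor plant age, nor whether plants were pooled. No other insertion line was sampled, so the ELF3 insertion and any other difference of this line cannot be told apart. Nothing in the labels says that the 3 libraries of a group came from separate plantings. A p-value therefore reflects only the spread within groups, pooled over all 27 libraries, which may be technical.

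ELF3 holds together the evening complex, formed with ELF4 and the DNA-binding protein LUX, or with BOA, a close relative of LUX. The complex is known to repress other clock genes and the growth factors PIF4 and PIF5 from dusk into the night, and warmth is known to weaken it. In this way it ties the circadian clock and ambient temperature to hypocotyl growth and flowering.

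The protocol text pairs Zeitgeber times of 8, 16 and 24 h with 16, 22 and 29 °C. In wild type at 16 °C CCA1 stood at 257.98, 270.76 and 281.61 TPM and GIGANTEA (GI) at 0.08, 0.09 and 0.08 TPM. CCA1 is known to peak at dawn and GI late in the day, so these levels go against a harvest at 8 h. CCA1 was also abundant in wild type at 22 °C (224 ± 3.80 TPM, SD, n = 3) and at 29 °C (137 ± 13.6 TPM). The time of day is not settled here, and both genotypes at 16 °C share whatever it was.

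TPM keeps no sequencing depth, so the depth of the libraries is unknown. In the 6 libraries 19491 to 19801 genes were at 1 TPM or more, and Pearson correlations of log2(TPM + 1) over genes ran from 0.975 to 0.986 between replicates. Green tissue dominated: 21 light-harvesting genes summed to 53341 to 56566 TPM in wild type and 64775 to 74712 TPM in the insertion line. The 23 root markers summed to 344.8 to 354.2 TPM in wild type and 317.2 to 406.2 TPM in the insertion line, with 2 members called higher and 2 lower. Flower organ markers (10 genes) summed to at most 3.02 TPM and seed markers (15 genes) to at most 3.01 TPM in any library. In whole seedlings, fewer cells of a type and less RNA per cell cannot be told apart.

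Differences below are insertion line minus wild type on the log2(TPM + 1) scale, which understates changes of low genes. SE and adjusted p came from limma with Benjamini-Hochberg adjustment over all 21396 genes. The fit used all 27 libraries, so the spread behind both is shared with the groups not compared here. A gene was called higher or lower at an adjusted p below 0.05. Higher calls numbered 3318 (15.5% of the genes tested) and lower calls 2283 (10.7%). Of these, 357 were higher (1.67% of the genes tested) and 360 lower (1.68%) by at least 1 log2. A difference of 2 log2 or more was reached by 50 higher and 83 lower genes. The shares of 15.5% higher and 10.7% lower are the background for every count of list members called. Higher genes made up 59.2% of all calls as deposited, 48.8% after median-of-ratios scaling and 50% after quantile normalization. The median of all genes tested was 0.034. The libraries of the groups did not overlap for 41.7% of the genes tested, which is the background for every remark on overlap below. Calls were spread evenly over the nuclear chromosomes, at 26.1% to 26.8% of the genes tested on each.

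**Figure D1:**
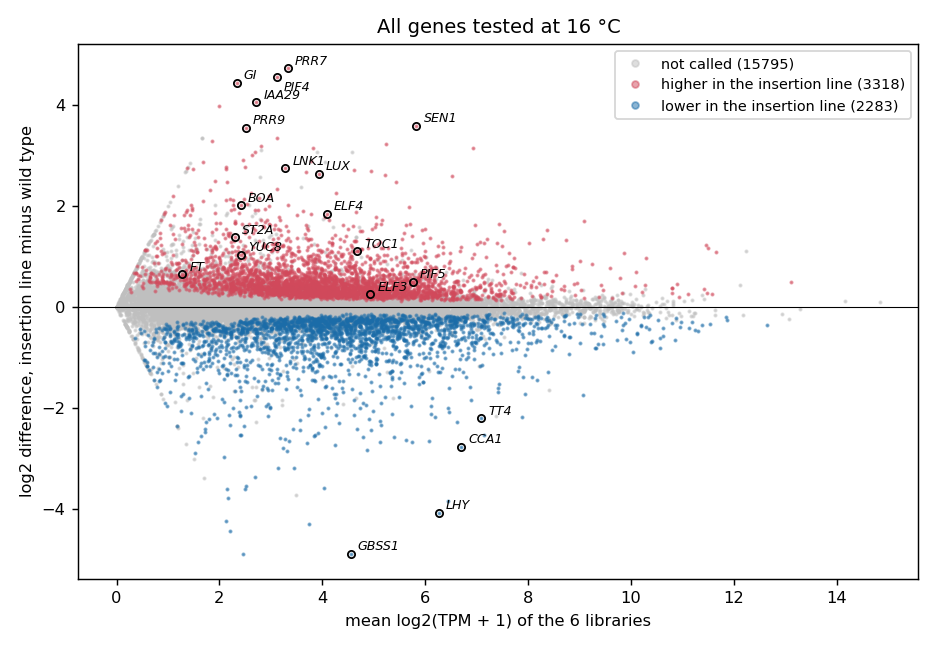
Each point is 1 of the 21396 genes tested, with its mean log2(TPM + 1) over the 6 libraries on the horizontal axis and its log2 difference, insertion line minus wild type, on the vertical axis. Called genes are coloured, and the circled genes run from PRR7 at 4.72 to GBSS1 at -4.88.

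Proximal upstream sequences are shown for 3 genes that rose and 2 that fell, because they carry the motifs through which the evening complex, CCA1 and light-signalling factors are known to bind. Each is the 250 bases before the annotated gene start, 5′ to 3′ on the gene's strand, from RefSeq TAIR10.1; the sources name no build, but 32373 of the 32547 genes found in that annotation have a table length equal to one of its transcripts. Capitals mark the G-box (CACGTG), the evening element (AAATATCT), the LUX-binding sites (GATACG and GATTCG) and the CCA1-binding site (AAAAATCT), searched on both strands. No marked motif overlaps another, and no window overlaps an annotated neighbour.
PRR9, chr2:19232357-19232606, plus strand: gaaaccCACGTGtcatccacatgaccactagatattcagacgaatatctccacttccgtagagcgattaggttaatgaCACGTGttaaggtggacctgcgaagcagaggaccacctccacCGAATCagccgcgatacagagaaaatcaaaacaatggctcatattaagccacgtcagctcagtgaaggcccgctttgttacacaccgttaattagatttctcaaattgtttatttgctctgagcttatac
LUX, chr3:17182792-17183041, plus strand: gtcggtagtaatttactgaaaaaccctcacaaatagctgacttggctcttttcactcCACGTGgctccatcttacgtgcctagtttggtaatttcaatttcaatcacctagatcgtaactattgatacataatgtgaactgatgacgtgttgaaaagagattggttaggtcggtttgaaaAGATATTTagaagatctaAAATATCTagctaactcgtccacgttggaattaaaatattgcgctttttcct
BOA, chr5:24003638-24003887, plus strand: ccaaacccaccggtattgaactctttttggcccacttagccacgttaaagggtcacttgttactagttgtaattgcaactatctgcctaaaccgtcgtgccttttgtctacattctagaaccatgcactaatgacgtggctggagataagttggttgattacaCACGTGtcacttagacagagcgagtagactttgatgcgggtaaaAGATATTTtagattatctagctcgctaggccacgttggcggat
CCA1, chr2:19245341-19245590, plus strand: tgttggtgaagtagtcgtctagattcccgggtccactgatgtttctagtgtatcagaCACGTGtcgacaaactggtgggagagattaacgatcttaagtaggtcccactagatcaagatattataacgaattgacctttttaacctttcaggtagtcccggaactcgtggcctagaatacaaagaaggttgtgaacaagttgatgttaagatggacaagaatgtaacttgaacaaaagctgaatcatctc
LHY, chr1:37872-38121, minus strand: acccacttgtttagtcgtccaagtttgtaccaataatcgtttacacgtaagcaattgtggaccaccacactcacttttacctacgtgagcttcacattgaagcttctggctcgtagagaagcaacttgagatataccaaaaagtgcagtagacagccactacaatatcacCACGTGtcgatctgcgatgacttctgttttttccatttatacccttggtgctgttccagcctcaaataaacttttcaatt

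The PRR9 window holds a LUX-binding site and a pair of G-boxes, LUX a pair of evening elements and a G-box, and BOA an evening element and a G-box. CCA1 and LHY hold a single G-box each. These windows were picked for the motifs they hold. Of the 8 evening complex targets PRR9 is the only one with a LUX-binding site in this window, PRR7 and PIF5 hold a G-box, and GI, PIF4 and LNK1 hold none of the motifs. LUX-binding sites were also found before LNK2 and RVE4, which were both lower (-0.69 and -0.30). Over 33054 promoters of the same length the G-box was found in 5.86%, the evening element in 4.55%, GATTCG in 7.9%, GATACG in 4.53% and the CCA1-binding site in 6.37%. The evening element was in 7.69% of the promoters of higher genes and 3.83% of those of lower genes, against 4.74% of all genes tested. The G-box was in 7.78% and 10.3%, against 7.04%. These matches describe letters in a window and were not tested.

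The genes of the evening complex itself were higher. ELF4, the small partner of ELF3, was at 8.65, 7.09 and 8.22 TPM in wild type and at 32.16, 30.73 and 30.81 TPM in the insertion line. LUX, whose evening elements are shown above, was at 4.92, 5.33 and 5.18 TPM against 39.91, 34.85 and 36.53 TPM. BOA was at 1.60, 2.0 and 1.41 TPM against 8.84, 11 and 9.41 TPM. In each of these genes all insertion-line libraries stood above all wild-type libraries, by 1.85 ± 0.193 for ELF4, 2.63 ± 0.0886 for LUX and 2.01 ± 0.0995 for BOA (adjusted p = 1.46e-07, 9.73e-16 and 7.61e-13). ELF3 transcript was present in the insertion line, at 30.52, 33.53 and 32.96 TPM against 24.96, 27.46 and 28.85 TPM. That rise of 0.25 ± 0.0781 (adjusted p = 0.0214) lost the call when wild-type replicate 1 was left out (adjusted p = 0.121). It also ended without insertion-line replicate 2 or 3 (adjusted p = 0.0758 and 0.0635) and in a fit of the 6 libraries alone (adjusted p = 0.0531). A gene-level TPM does not check an insertion whose position is not given.

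Known targets of the complex were higher throughout: all 8 passed the filter, all 8 were called higher, and the median difference was 3.14. All 8 are also members of other lists described here, so the counts of these lists are not separate evidence. PRR9 and PRR7 encode pseudo-response regulators, repressors of CCA1 and LHY. PRR9 was at 0.63, 0.60 and 0.77 TPM in wild type and 17.08, 19.15 and 19.24 TPM in the insertion line (3.55 ± 0.0891, adjusted p = 1.14e-17). PRR7 was at 0.80, 0.93 and 1.17 TPM against 46.48, 59.96 and 46.52 TPM (4.72 ± 0.121, adjusted p = 1.26e-17). GI, an evening clock protein that also acts in flowering, rose from 0.08, 0.09 and 0.08 TPM to 24.97, 18.06 and 25.11 TPM (4.44 ± 0.120, adjusted p = 3.25e-17). For these genes the wild type was near the lower end of detection and no insertion-line library came close to it. LNK1, a coactivator of the clock, was at 2.19, 3.42 and 2.77 TPM against 26.26, 22.88 and 23.34 TPM (2.74 ± 0.102, adjusted p = 6.76e-15).

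The pseudo-response regulator family rose as a whole, with 5 of 5 members called higher. PRR3 was at 1.0 ± 0.157 TPM (SD, n = 3) against 14.1 ± 1.95 TPM (2.91), and PRR5 at 2.75 ± 0.694 against 10.7 ± 0.777 TPM (1.66). TOC1, the member expressed latest in the day, was at 16.47, 15.60 and 17.30 TPM against 35.19, 38.01 and 35.76 TPM. Its rise of 1.1 ± 0.0711 (adjusted p = 6.74e-11) was the smallest in the family.

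Morning factors went both ways. Of 14 members 8 were lower and 4 higher, with a median of -0.37. LHY, a MYB factor that with CCA1 represses evening genes, was at 313.76, 304.63 and 321.15 TPM in wild type and 15.12, 21.07 and 17.33 TPM in the insertion line (-4.07 ± 0.112, adjusted p = 3.53e-17). CCA1 was at 257.98, 270.76 and 281.61 TPM against 37.70, 42.31 and 36.73 TPM (-2.77 ± 0.0982, adjusted p = 2.79e-15). Their REVEILLE relatives split. RVE3 was at 14.12, 14.06 and 15.02 TPM against 0.22, 0.43 and 0.15 TPM (-3.61 ± 0.111, adjusted p = 2.04e-16). RVE8, an activator of evening genes, fell by 1.71 and RVE1, which raises auxin synthesis, by 1.60, whereas RVE7 was higher by 1.18. RVE2 was at 240 ± 9.72 TPM against 291 ± 39.6 TPM and was not called (0.27, adjusted p = 0.108). Among the LNK coactivators LNK3 (0.94) and LNK4 (0.66) were higher like LNK1, while LNK2 was lower (-0.69).

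**Figure D2:**
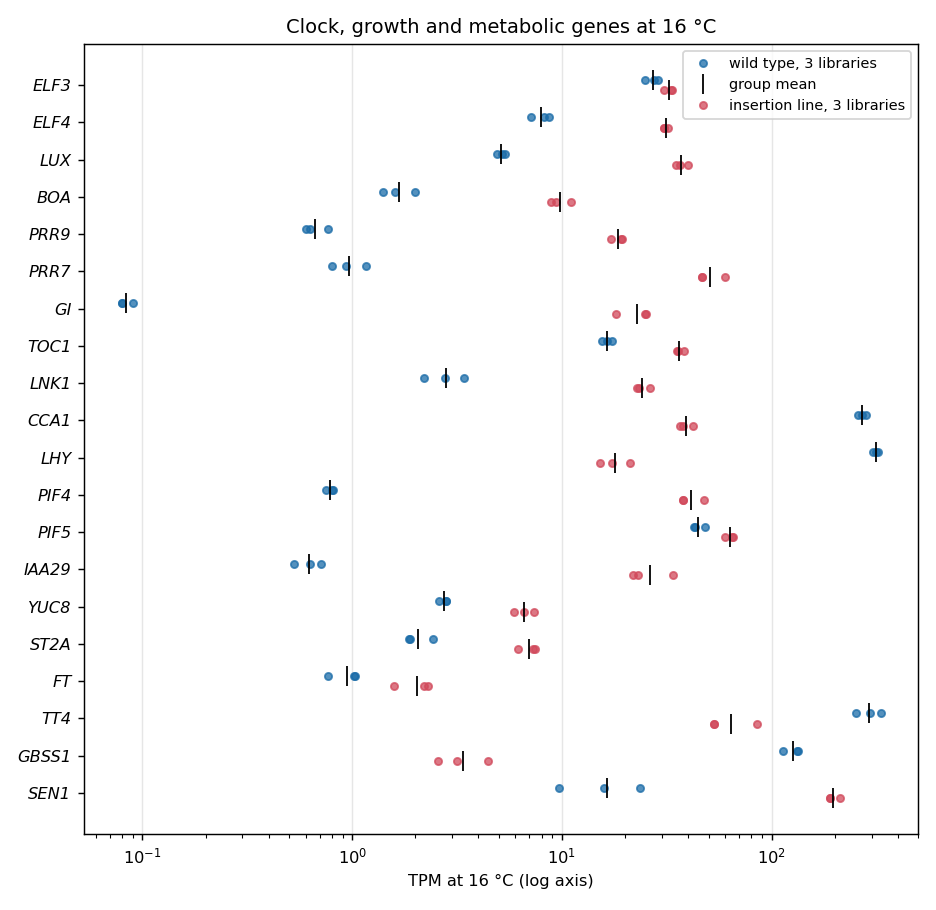
Levels in TPM (log axis) of 20 genes in the 3 wild-type and 3 insertion-line libraries at 16 °C, 1 point per library and a bar at each group mean. No gene shown has overlapping groups, and GI is farthest apart, at 0.08 to 0.09 TPM in wild type against 18.06 to 25.11 TPM.

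Flowering genes of the photoperiod pathway divided into 7 higher and 5 lower of 13 tested, with 3 lower without insertion-line replicate 2, insertion-line replicate 3 or wild-type replicate 2. FT, the mobile flowering signal, was at 1.03, 0.77 and 1.02 TPM in wild type and 2.31, 1.59 and 2.21 TPM in the insertion line. The groups did not overlap, and the rise was 0.64 ± 0.131 (adjusted p = 7.28e-04), which did not pass with a pseudocount of 0.1 (1.03, adjusted p = 0.177). CO, the activator of FT, was at 4.05 ± 0.501 against 6.88 ± 0.186 TPM (0.65), and SOC1, an integrator downstream of FT, at 7.39 ± 0.676 against 12.7 ± 0.376 TPM (0.71). The blue-light F-box gene FKF1 rose by 1.22 and the CO repressor CDF5 by 2.26. COL2, a relative of CO, fell from 203.53, 214.98 and 223.72 TPM to 42.68, 43.15 and 44.56 TPM (-2.27 ± 0.0690, adjusted p = 2.01e-16). Of 14 flowering repressors 4 were lower, led by SNZ (-1.17), and TEM1 was higher (0.55). Only 2 were lower when insertion-line replicate 1 or 3, or wild-type replicate 2 or 3, was left out. FLM was at 42.3 TPM in wild type and 49.6 TPM in the insertion line and was not called (adjusted p = 0.155).

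Genes of the PIF and shade pathway were higher in 13 of 15 members, with none lower and a median of 1.23. PIF4, a bHLH factor that drives elongation, was at 0.81, 0.80 and 0.75 TPM in wild type and 37.68, 47.69 and 37.89 TPM in the insertion line (4.55 ± 0.0883, adjusted p = 1.02e-19). PIF5, its close relative, was already at 42.72, 47.91 and 42.99 TPM in wild type and reached 64.69, 65.70 and 59.74 TPM (0.50 ± 0.0648, adjusted p = 3.17e-06). The libraries of the groups did not overlap for either gene. The shade genes PAR1 (2.67), PIL1 (2.49) and HFR1 (2.03), which encode relatives of the PIF proteins, were higher. So were the homeodomain genes HAT1, HAT2 and HAT3 (0.60, 1.31 and 1.23). PIF1 (14.1 against 13.8 TPM) and PIF7 (9.29 against 10.8 TPM) were not called.

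Auxin genes moved unevenly. YUC8, which makes auxin in response to PIF4, was at 2.79, 2.60 and 2.81 TPM against 6.58, 7.33 and 5.93 TPM, with no overlap (1.02 ± 0.109, adjusted p = 1.83e-07). Of 14 auxin synthesis genes 5 were higher and 3 lower, among the latter TAR2 (-0.70). The counts were 3 higher without wild-type replicate 3 and 1 lower in the fit of the 6 libraries. The Aux/IAA repressors, quick reporters of auxin response, counted 11 higher and 4 lower of 26. IAA29 was at 0.71, 0.63 and 0.53 TPM in wild type and 23.04, 33.75 and 21.88 TPM in the insertion line (4.04 ± 0.121, adjusted p = 1.74e-16). IAA19 rose by 3.14 and IAA6 by 1.95, while IAA9, at 133 TPM in wild type, was not called (0.18, adjusted p = 0.0546). Of 66 SAUR genes tested, which promote cell expansion, 28 were higher and 5 lower, with a median of 0.26. SAUR22 was at 0.00, 0.18 and 0.31 TPM in wild type and 10.18, 11.79 and 8.99 TPM in the insertion line, and SAUR19 at 0.18 TPM on average against 7.72 TPM. SAUR19 to SAUR24 are similar copies whose reads may have been split between them.

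Auxin conjugation and cytokinin genes added smaller differences. GH3.9, of the family that links auxin to amino acids, was at 8.0, 8.93 and 8.68 TPM in wild type and 1.36, 0.88 and 1.3 TPM in the insertion line (-2.14 ± 0.113, adjusted p = 2.27e-12). Of the 8 GH3 genes 3 were higher, WES1 (1.12), DFL1 (0.65) and GH3.3 (0.60), and 2 lower, GH3.9 and GH3.17 (-0.44). The lower count was 1 without insertion-line replicate 1 or 2, or wild-type replicate 2 or 3. Of 16 cytokinin genes 5 were higher and 4 lower, and the higher count was 2 without wild-type replicate 1, 3 without wild-type replicate 3 and 2 in the fit of the 6 libraries. The cytokinin synthesis gene IPT3 fell by 0.79.

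Brassinosteroid genes were higher in 14 of 23 members and lower in 1. PRE1, a small HLH protein that promotes elongation, was at 1.7, 0.99 and 1.11 TPM against 14.83, 22.78 and 16.33 TPM (3.06 ± 0.164, adjusted p = 2.93e-12). The synthesis gene CPD was at 51.7 ± 1.60 against 104 ± 5.14 TPM (1.0). Gibberellin genes were higher in 11 of 16 and lower in 3 (7 and 2 in the fit of the 6 libraries). The synthesis gene GA20OX2 stood at 1.54, the DELLA repressor genes GAI and RGL1 at 1.28 and 0.84, and the inactivation gene GA2OX8 at 0.87. The synthesis genes GA3OX1 and GA3OX2 were lower (-0.68 and -0.81). Ethylene genes were higher in 9 of 21 with none lower. Among these, ACO4, which makes ethylene, was at 109 TPM in wild type and 311 TPM in the insertion line (1.5). Of 29 XTH wall enzymes 10 were higher and 6 lower: TCH4 rose by 2.70 and XTH32 fell by 2.11. Expansin genes counted 8 higher and 4 lower of 24, led by EXLA1 (1.90) and EXPA11 (1.53), with 2 lower without insertion-line replicate 2 or wild-type replicate 1 and 1 in the fit of the 6 libraries.

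Regulators of light signalling were mostly lower, with 13 of 20 HY5, B-box and COP genes lower, 4 higher and a median of -0.84. HYH, a bZIP factor and partner of HY5, was at 168.96, 193.34 and 178.34 TPM in wild type and 38.12, 47.09 and 40.91 TPM in the insertion line (-2.08 ± 0.182, adjusted p = 8.89e-09). HY5, which promotes greening and flavonoid synthesis, was at 19.56, 21.95 and 19.02 TPM against 9.11, 8.70 and 6.92 TPM (-1.20 ± 0.127, adjusted p = 1.68e-07). RUP2, a repressor of UV-B signalling, was at 31.24, 31.71 and 33.58 TPM against 4.67, 4.29 and 3.55 TPM (-2.69 ± 0.0820, adjusted p = 2.04e-16). The groups did not overlap in any of these genes. COP1, the ubiquitin ligase that marks HY5 for degradation, was also lower (-0.54), as were SPA1, SPA3 and SPA4 (-0.78, -1.08 and -1.03). BBX28, a B-box protein that opposes HY5, was higher, at 18.7 ± 2.39 TPM in wild type and 63.7 ± 3.49 TPM in the insertion line (1.72). Other B-box genes split: EIP6 and STH were among the lower ones (-2.96 and -1.85), and STO, STH2 and STH3 were higher (0.24, 0.39 and 0.58). Among photoreceptors PHYA (0.92) and PHOT1 (1.02) were higher and CRY3 (-1.09) and PHOT2 (-0.68) lower.

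The flavonoid pathway fell together. Of 29 members 20 passed the filter, 17 of these were lower and none was higher, and the median was -2.05. Chalcone synthase, TT4, which makes the first committed intermediate, was at 251.74, 330.28 and 293.81 TPM in wild type and 53.31, 84.97 and 52.94 TPM in the insertion line (-2.20 ± 0.141, adjusted p = 5.33e-11). The flavonol branch enzyme FLS1 was at 92.66, 112.10 and 101.32 TPM against 16.16, 16.91 and 15.80 TPM (-2.57 ± 0.136, adjusted p = 2.34e-12). Enzymes of the anthocyanin branch were as low: LDOX fell by 2.85, DFR by 2.44 and the anthocyanin glycosyltransferase UGT79B1 by 2.47. TT19, a glutathione transferase needed to move anthocyanin to the vacuole, fell by 2.79. Among the regulators MYB111 (-1.07) and TT8 (-0.90) were lower, whereas MYB12 (-0.37, adjusted p = 0.0639), GL3 and EGL3 were not called. The anthocyanin regulator MYB75 was at 1.56, 1.47 and 1.35 TPM against 0.12, 0.00 and 0.12 TPM, levels at which the log2(TPM + 1) scale understates changes.

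**Figure D3:**
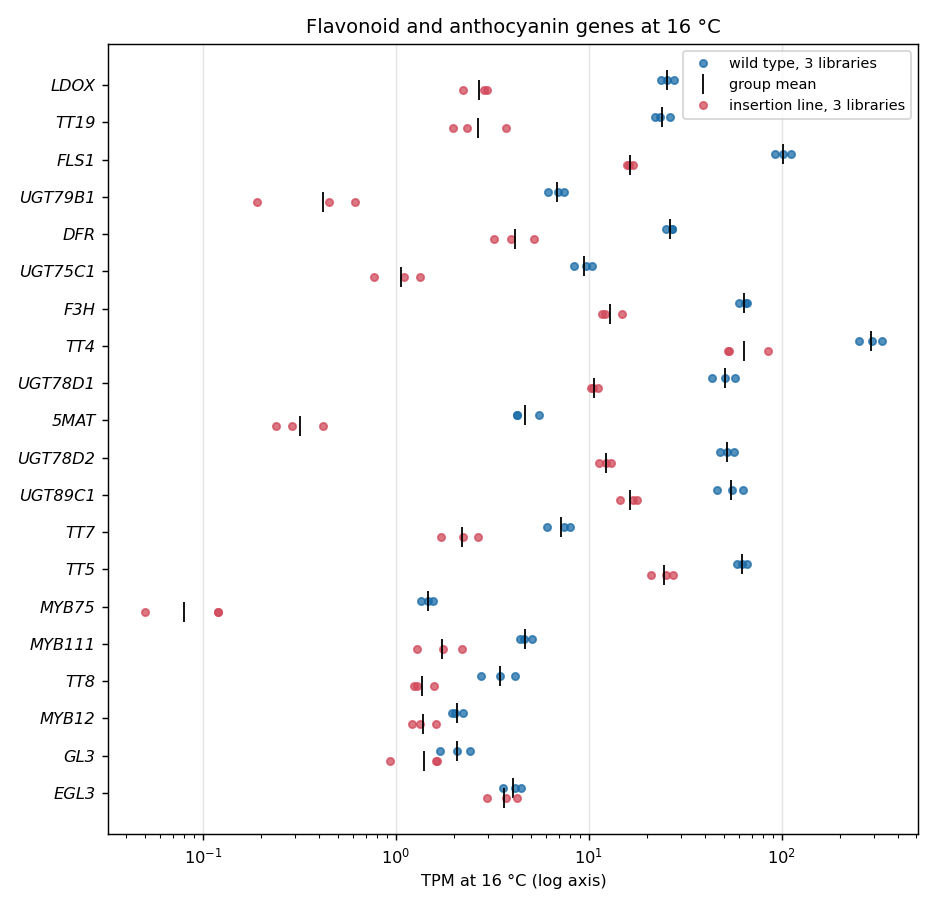
Levels in TPM (log axis) of the 20 flavonoid and anthocyanin genes tested, 1 point per library and a bar at each group mean, ordered by log2 difference from LDOX (-2.85) to EGL3 (-0.13). A value listed at 0, in MYB75, is drawn at 0.05, and the groups are apart for 19 of the 20 genes.

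Photosynthesis genes did not move as a block. The light-harvesting genes, whose products bind chlorophyll around the photosystems, counted 8 higher and 7 lower of 21, or 5 higher with median-of-ratios scaling. LHCA4 was at 1838.84, 1871.67 and 1796.04 TPM in wild type and 4282.96, 4785.53 and 3894.35 TPM in the insertion line (1.23 ± 0.0966, adjusted p = 1.64e-09). LHCA1 and LHCB3 were higher by 1.09 and 1.16, while LHCB2.1 fell by 0.67 and LHCB2.3 by 0.81. LHB1B2 was at 3510.03, 3239.45 and 3181.78 TPM against 7548.21, 7074.27 and 6768.88 TPM, without overlap, yet was not called (1.11 ± 1.92, adjusted p = 0.725). In the fit of these 6 libraries alone it passed (adjusted p = 1.98e-04). The shared spread contains insertion-line libraries at 22 °C listed at 0.00, 4585.30 and 13488.74 TPM. LHB1B1 and LHB1B2 are similar copies, as are CAB1, CAB2 and CAB3, and the split of reads between copies is uncertain. The Rubisco small subunit gene RBCS1A was not called (0.10, adjusted p = 0.291), and Rubisco activase, RCA, was slightly lower (-0.35).

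Chlorophyll synthesis genes were lower in 13 of 23 members and higher in 2. HEMA1, which starts tetrapyrrole synthesis, was at 460.76, 494.05 and 480.34 TPM against 184.22, 169.25 and 168.69 TPM (-1.45 ± 0.0703, adjusted p = 5.52e-13). GUN4, an activator of magnesium chelatase, was at 417.18, 452.63 and 433.28 TPM against 164.72, 169.90 and 159.29 TPM (-1.39 ± 0.0503, adjusted p = 3.67e-15). The wild-type libraries stood above all insertion-line libraries for both. CAO, which makes chlorophyll b, fell by 1.26, and the light-dependent reductase gene PORB was higher (0.44). Of 8 early light-induced genes 5 were lower, and ELIP2, a photoprotective protein, was at 168 ± 12.9 against 26.0 ± 4.60 TPM (-2.66).

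Starch synthesis genes were lower or not called, and starch breakdown genes went both ways. GBSS1, which makes amylose, was at 113.50, 131.44 and 133.82 TPM in wild type and 3.15, 4.42 and 2.57 TPM in the insertion line. It fell by 4.88 ± 0.159 (adjusted p = 5.79e-16). Of the 20 starch synthesis genes 8 were lower and none higher, and GBSS1 was the only called member past 1 log2. SS2 and SS3, starch synthases, fell by 0.78 and 0.66, and SS1 was not called (0.04, adjusted p = 0.744). Starch breakdown genes counted 7 lower and 4 higher of 19. The beta-amylase gene BAM3 was at 430.46, 441.26 and 461.75 TPM against 138.59, 123.19 and 141.13 TPM (-1.72 ± 0.118, adjusted p = 1.7e-10). BAM9, a catalytically inactive relative, fell by 2.53, and the alpha-amylase gene AMY3 rose by 1.54.

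Genes induced by darkness and sugar starvation were higher in 15 of 19 members and lower in 1, DIN9 (-0.75), with a median of 0.71. SEN1, a dark-inducible gene of senescing leaves, was at 23.47, 9.70 and 15.94 TPM in wild type and 210.92, 189.08 and 188.86 TPM in the insertion line (3.58 ± 0.241, adjusted p = 1.24e-10). ASN1, which makes asparagine when sugar is short, was at 5.11, 3.65 and 3.62 TPM against 37.27, 35.31 and 37.24 TPM (2.89 ± 0.279, adjusted p = 4.20e-08). The lowest insertion-line library of each gene stood far above the highest wild-type library. DIN10 rose by 1.64 and BGAL4 by 1.30.

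Of 22 nitrogen genes 5 were lower, or 3 without insertion-line replicate 2 or wild-type replicate 3, and 3 were higher. ASN2, the asparagine synthetase gene active in light, was at 406.64, 502.71 and 517.14 TPM against 277.11, 248.12 and 264.72 TPM and fell by 0.84, in contrast to ASN1. The ammonium transporter gene AMT1;2 fell by 1.03 and the nitrite reductase gene NIR1 by 0.67, while the glutamate dehydrogenase genes GDH1 and GDH2 rose by 0.53 and 0.77. Senescence genes were higher in 4 of 11 and lower in 1. Of these NYC1, a chlorophyll b reductase gene, rose by 0.66 and SAG20 by 0.87, and the lower gene was NOL (-0.31).

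Cold-related genes did not share a direction. Of 19 members 6 were higher and 4 lower. COR27, an evening-expressed clock regulator, was at 1.89, 1.1 and 1.11 TPM against 21.44, 19.86 and 19.36 TPM (3.18 ± 0.148, adjusted p = 3.49e-13). Its relative COR28 rose by 1.91 and COR413IM1, a chloroplast membrane protein gene, by 2.69. COR15A, a cryoprotective chloroplast protein gene, was at 21.77, 30.79 and 31.04 TPM against 6.37, 6.5 and 8.44 TPM and fell by 1.82. Heat shock genes were higher in 5 of 24 with a median of 0.08, near the 15.5% and 0.034 of all genes tested, and DREB2A stood at 0.68.

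Aliphatic glucosinolate genes, which make defence compounds from methionine, were lower in 14 of 24 members and higher in none, with a median of -0.51. CYP79F1, which commits methionine derivatives to the pathway, was at 13.35, 14.75 and 13.85 TPM against 3.55, 2.11 and 3.39 TPM (-1.92 ± 0.161, adjusted p = 4.65e-09). The regulator MYB29 fell by 1.48 and MYB28 by 0.83. Indole glucosinolate genes counted 4 lower of 13, but 1 in the fit of the 6 libraries alone and 2 lower with 2 higher without insertion-line replicate 2. In the jasmonate list 5 of 25 were lower, including the synthesis gene AOC1 (-1.43). A further 3 were higher, near the 15.5% of all genes tested, a count that was 1 without insertion-line replicate 3 or wild-type replicate 1. ST2A, which inactivates a jasmonate, was higher, at 2.44, 1.87 and 1.89 TPM in wild type and 7.25, 6.17 and 7.46 TPM in the insertion line (1.38 ± 0.156, adjusted p = 4.43e-07). Abscisic acid genes counted 5 higher and 4 lower of 23, near the 15.5% and 10.7% of all genes tested.

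Touch and wound genes, which respond within minutes to handling, were higher in 10 of 16 members, but their level varied between replicates. Their summed level was 142.4, 173.1 and 220.1 TPM in wild type and 333.6, 290.9 and 524.2 TPM in the insertion line. Without insertion-line replicate 3, the highest library, 6 of 16 were higher, without wild-type replicate 1, the lowest, 7 were, and in the fit of the 6 libraries alone 5 were. TCH4, at 8.25, 7.92 and 9.64 TPM against 61.14, 58.17 and 64.57 TPM, did not share that spread. The part of handling in these values was not tested.

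The list of ribosomal protein genes also holds members of the mitochondrial ribosome. Of 218 tested 13 were higher and 4 lower, with a median of 0.03, near the median of all genes. Leaving aside the minimum of 1 log2, which kept 0 higher and 1 lower, the alternatives gave 5 to 23 higher and 1 to 9 lower. Cell cycle genes counted 5 lower and 1 higher of 26. That lower count was 1 without insertion-line replicate 2 or wild-type replicate 1, 3 without wild-type replicate 2 or 3 and 11 without insertion-line replicate 3. It was 0 in the fit of the 6 libraries, 11 with median-of-ratios scaling and 12 after quantile normalization. Iron genes were lower in 7 of 22, among them the metal transporter gene OPT3 (-0.90), and in 3 or 4 of 22 whichever library was left out. Stomatal lineage genes were lower in 4 of 14, or 2 in the fit of the 6 libraries.

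**Figure D4:**
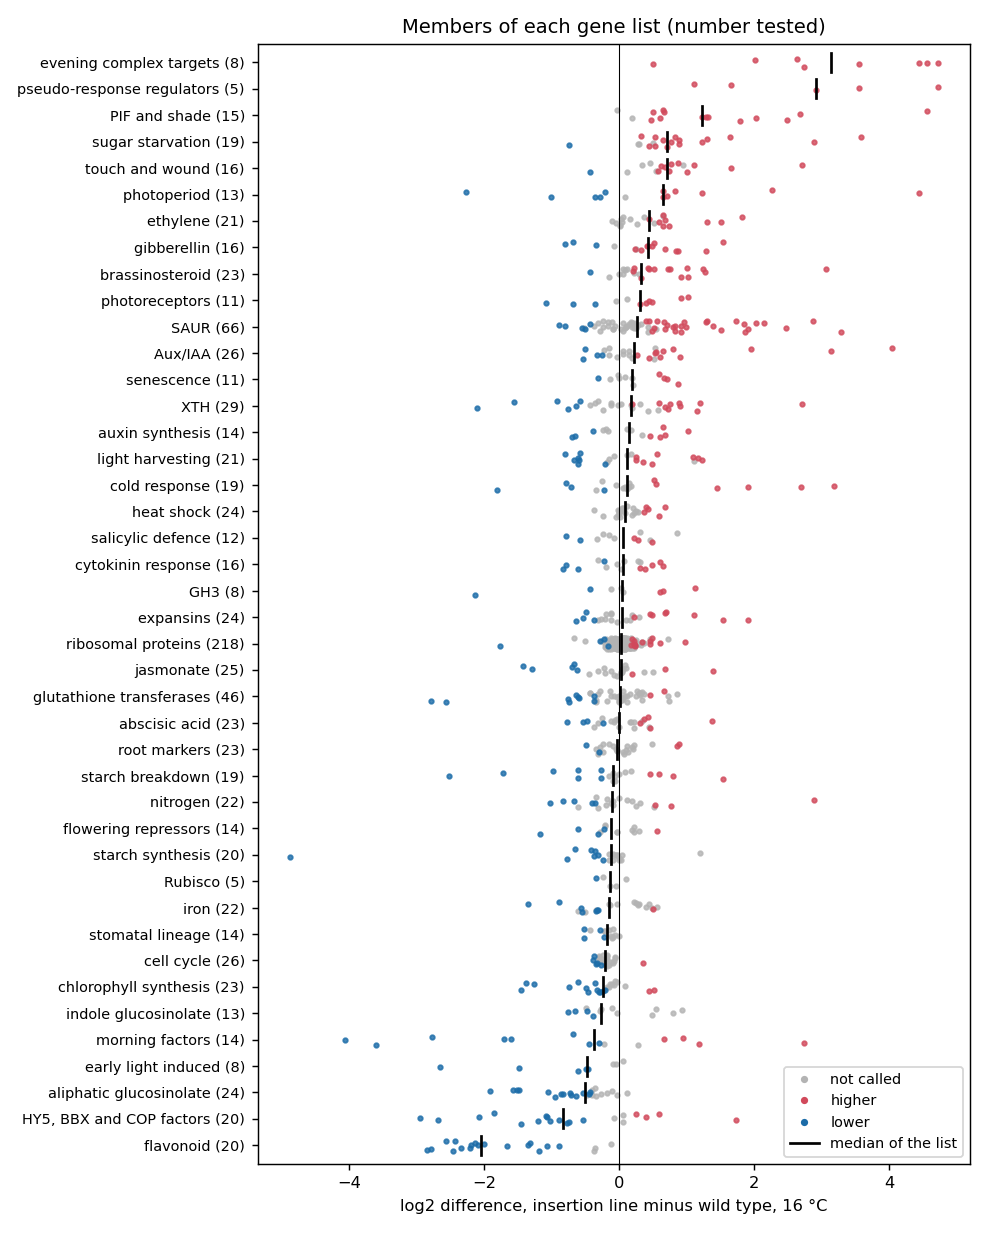
Log2 difference, insertion line minus wild type at 16 °C, of each tested member of the gene lists with at least 5 tested members, with the number tested in brackets and a black bar at the median. Evening complex targets stand at the top with a median of 3.14 and flavonoid genes at the bottom with -2.05.

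Among genes outside these lists the falls were led by MRD1, at 30.78, 28.52 and 27.25 TPM in wild type and listed at 0 in all 3 insertion-line libraries. MIR398b, annotated at 116 bases, was at 15.67, 27.98 and 19.70 TPM against 0 in all 3, and the small nuclear RNA U4.2, at 153 bases, was at 0 in wild type against 21.81, 10.67 and 13.37 TPM. Levels of such short RNAs varied widely in the other groups too, with MIR398b at 30.45, 0.00 and 15.76 TPM in wild type at 22 °C. PGL5, an enzyme of the pentose phosphate pathway, fell by 3.36, and SIGE, a light-responsive sigma factor of the plastid, by 2.72. G3Pp1, of the glycerol-3-phosphate permease family, fell by 2.67, and 4CL3, which feeds flavonoid synthesis, by 2.62. The phosphoenolpyruvate translocator gene PPT2 and the arginase gene ARGAH2 fell by 2.53 and 2.5.

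Apart from U4.2, the rises were led by CCL, whose mRNA stability is known to follow the clock, at 11.4 TPM in wild type and 115 TPM in the insertion line (3.23 ± 0.156, adjusted p = 5.58e-13). QQS, an orphan gene that affects starch content, was at 0.66, 2.05 and 1.07 TPM against 22.15, 24.28 and 8.09 TPM (3.0 ± 0.339, adjusted p = 4.49e-07). The dormancy-associated gene DYL1 was at 36.4 TPM in wild type and 225 TPM in the insertion line (2.59). BNQ2, an HLH gene of the PRE1 family, rose by 2.33, MEE14 by 2.61, P1R3 by 2.72 and CYP71B24 by 2.14.

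The difference between the insertion line and wild type is called the effect of the line here. Whether this effect at 16 °C differed from that at 22 and 29 °C was tested as a difference of differences. These contrasts share the 16 °C libraries, and time of day may differ between temperatures. The effect differed from that at 22 °C for 2101 genes (9.82% of the genes tested; 4.35% with a higher effect at 16 °C, 5.47% with a lower). It differed from that at 29 °C for 4421 genes (20.7%; 9.3% higher, 11.4% lower). Higher genes were 45% of these 29 °C calls as deposited and 55.3% after median-of-ratios scaling. LHY fell less at 16 °C (-4.07) than at 22 °C (-5.32) or 29 °C (-5.69), and CCA1 likewise (-2.77 against -3.90 and -4.22). PIF4 rose more at 16 °C (4.55) than at 22 °C (4.02) or 29 °C (2.3). ST2A showed the reverse, at 1.38 against 5.05 and 3.63. GBSS1 fell by 4.88 at 16 °C, 5.15 at 22 °C and 2.78 at 29 °C, and only the difference from 29 °C passed (adjusted p = 0.529 and 6.94e-07). Of the 20 flavonoid genes, 17 were lower in that contrast, with a median effect of -2.05 at 16 °C and -0.40 at 29 °C. Of 23 chlorophyll synthesis genes 20 were higher in it, with a median effect of -0.24 at 16 °C and -0.96 at 29 °C.

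**Figure D5:**
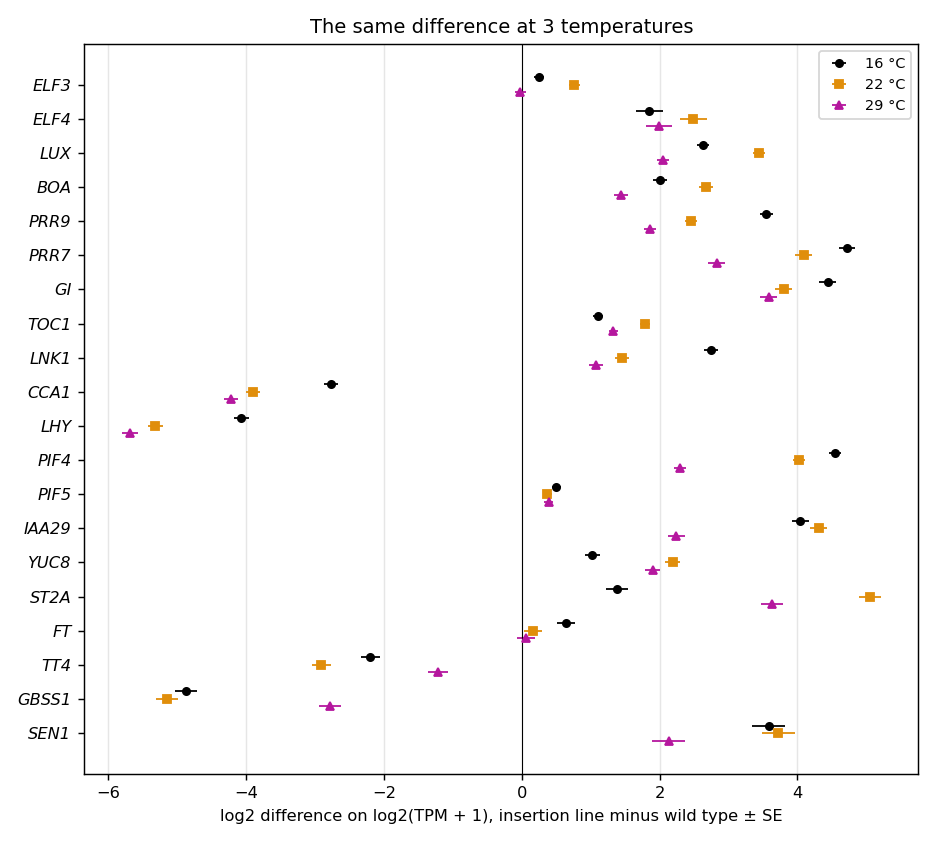
Log2 difference on log2(TPM + 1), insertion line minus wild type, with SE bars for 20 genes at 16 °C (circles), 22 °C (squares) and 29 °C (triangles), 3 libraries per group. ST2A spans 1.38 to 5.05 and PIF4 2.3 to 4.55.

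At 16 °C the insertion line also differed from the S364P line, with 2619 genes higher (12.2% of the genes tested) and 1497 lower (7.0%). Higher genes were 63.6% of these calls as deposited, 46.8% after median-of-ratios scaling and 49.3% after quantile normalization. CCA1 and LHY were lower in the insertion line than in the S364P line by 2.84 and 3.63 (adjusted p = 2.09e-15 and 3.48e-16), with 285 ± 19.6 and 230 ± 10.14 TPM in the latter. PIF4, PRR7 and GI were higher by 1.46, 1.54 and 2.59. LNK1 was at 24.2 ± 1.83 TPM in the insertion line and 20.3 ± 0.803 TPM in the S364P line, and the difference, 0.24 ± 0.102, missed the threshold (adjusted p = 0.118). PIF5 was lower in the insertion line by 0.44 (adjusted p = 2.42e-05).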

How the data were processed

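Messenger RNA of Arabidopsis thaliana seedlings was measured on an Illumina platform, per the labels. The authors deposited TPM values, 1 column per library for 33039 genes in 27 libraries, used as deposited; aligner, quantifier and genome build were not given in the sources used here. TPM keeps no depth, so no counting interval is given. Columns were tied to groups by name. Titles, descriptions and column names number the insertion-line replicates at 16 °C differently, and the column numbers used here identify no sample.

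The log2(TPM + 1) values of genes reaching 1 TPM in 3 or more of 27 libraries were fitted with limma 3.58.1 (R 4.3.3), with a mean for each of 9 groups, 18 residual and 3.17 prior degrees of freedom and a variance trend. Tests were two-sided, p-values were adjusted by Benjamini-Hochberg over all genes fitted, and calls needed an adjusted p below 0.05. The procedure was also run on simulated data with independent noise for each value. That run cannot speak to spread shared by the libraries of a group, such as handling. Members and lists (45 lists) were chosen with earlier results of these data known, and list entries with a wrong gene identifier were corrected after the tables were read. Lists were described by counts and medians, without tests.

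Named genes were 20 core genes, up to 4 called members of each list by size of difference, the not-called member with the highest mean, and the 8 largest rises and falls among other called genes with a symbol, 5 TPM or more on average and groups that do not overlap; further list members fill in the pathways and were named after their values were seen. Promoters were read from RefSeq TAIR10.1. Other computations used Python 3.11.15, pandas 2.3.3, NumPy 2.4.6 and matplotlib 3.10.9. Alternatives were a pseudocount of 0.1 or 5, median-of-ratios scaling or quantile normalization, a 5 TPM filter or none, a fit of the 6 libraries, removal of 285 organelle-encoded genes, a minimum of 1 log2, and leaving out each library.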

Additional observations from a re-analysis of the deposited data

Results flagged for a closer look

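The effect of the line, insertion line minus wild type, differed between temperatures for 14 of 20 core genes when 16 °C was set against 22 °C. Against 29 °C it differed for 16 of 20. Each was tested in limma as a difference of differences at an adjusted p of 0.05. Values are the effect at 16 °C minus the other, on the log2(TPM + 1) scale. The contrasts share the 16 °C libraries, and the protocol text pairs each temperature with its own Zeitgeber time, so temperature and time of day cannot be told apart.

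Against 22 °C the evening complex genes ELF3, LUX and BOA had smaller rises at 16 °C, by -0.52, -0.81 and -0.66. ELF4, the other gene of the complex, was not among the genes that differed. TOC1 stood at -0.70, YUC8 at -1.17 and ST2A at -3.67. Larger rises at 16 °C were measured for PRR9 (1.09), PRR7 (0.63), GI (0.64), LNK1 (1.29) and PIF4 (0.53). The falls of CCA1, LHY and TT4 were smaller at 16 °C, by 1.14, 1.25 and 0.71.

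Against 29 °C the rises at 16 °C were larger for LUX (0.58), BOA (0.57), PRR9 (1.68), PRR7 (1.89), GI (0.86), LNK1 (1.66), PIF4 (2.24), IAA29 (1.8), FT (0.58) and SEN1 (1.46). They were smaller for YUC8 (-0.87) and ST2A (-2.25). CCA1 and LHY fell less at 16 °C, by 1.46 and 1.62, whereas TT4 and GBSS1 fell more, with -0.98 and -2.09.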

How the results depend on the processing

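The count of 5601 called genes stayed within 1.5 times under every alternative run except the minimum difference of 1 log2, which left 717 here, 282 and 627 for the differences from 22 and 29 °C, 484 against the S364P line and 130 of the 421 list genes called. Higher genes were 59.2% of all calls as deposited but 48.8% after median-of-ratios scaling and 49.8% with that minimum; the cause was not tested. Leaving out 1 library gave 4470 to 5332 called genes, 55.6% to 61.9% of them higher, and 371 to 406 list genes. For the other contrasts it gave 1621 to 2068 (22 °C), 3604 to 4461 (29 °C) and 3433 to 4008 (S364P). Of 181 named genes called, 152 stayed called under every alternative apart from the minimum difference, 29 were lost under at least 1 of them and none changed direction. Of 41 named genes not called, 10 passed under at least 1. The fit of the 6 libraries was run for the main contrast alone. No paired analysis was possible because the labels do not link replicates of different genotypes. In addition, 2 of the 3 insertion-line columns at 16 °C could not be tied to a replicate label. With 3 libraries a group and unknown depth, low genes are the least certain.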

Other observations

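MRD1 was the only gene in the table at 5 TPM or more in all 9 wild-type libraries and at 0.2 TPM or less in all 9 insertion-line libraries, a search made after its value was seen; no gene showed the reverse. It ranged from 27.25 to 56.83 TPM in wild type, from 0 to 0.17 TPM in the insertion line and from 20.53 to 55.36 TPM in the 9 S364P libraries, over all 3 temperatures.

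The following genes were chosen after their values were seen, for large differences in absolute level at 16 °C. The photorespiratory catalase gene CAT2 was at 973 ± 49.4 TPM (SD, n = 3) in wild type and fell by 1.74 ± 0.0882 on the log2 scale (limma, adjusted p = 1.13e-12). The Calvin cycle aldolase genes FBA1 and FBA2 fell by 0.89 and 0.49, GAPA-2 by 0.66 and the carbonic anhydrase gene CA2 by 0.46. SAMDC, an enzyme of polyamine synthesis, fell by 0.81. Gains outside the light-harvesting genes included the tonoplast aquaporin gene TIP2, at 643 ± 34.3 TPM in wild type and higher by 1.06 ± 0.121 (adjusted p = 5.02e-07), and GRP3S, a glycine-rich protein gene, higher by 0.96.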
